A study of Rattus norvegicus with 14 samples.

Results

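The 3 mesotheliomas that grew in rats after injection of MWCNT D were compared with 3 control peritoneal tissues, chosen by the sample titles, out of 14 arrays that also cover 8 tumors of other inducers. MWCNT D is a multiwalled carbon nanotube made from acetonitrile, and each treated rat received it once into the peritoneal cavity, in artificial lung medium. All animals were male Wistar rats, and the controls are labelled sham-treated, although the study's methods call them untreated. Each array holds the RNA of 1 tumor or tissue piece, and the ages are not given in the sources used here. MWCNT D replicate 1 was an epithelioid mesothelioma, replicate 2 a sarcomatoid one and replicate 3 a biphasic one, so tumor type and animal cannot be told apart within the group.

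Mesothelioma arises from the mesothelium, a single layer of flat cells that lines the body cavities and carries both keratins and vimentin. Epithelioid tumors keep much of the epithelial character of this layer, sarcomatoid tumors are spindle-celled, and biphasic tumors hold both patterns. Fibers that persist in the cavity are known to draw macrophages, which try to engulf them and release cytokines.

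Levels are given as log2 signal, the log2 of the deposited array signal plus 1. A difference is the mean log2 signal of the 3 MWCNT D tumors minus that of the 3 controls, with its standard error (SE) from limma. A probe set was called higher or lower where the adjusted p lay below 0.05 and the groups differed by more than 2-fold, and a gene was read from its brightest probe set. On the array 6951 of 31042 probe sets were called higher (22.4%) and 3158 lower (10.2%), and at the level of genes 3604 of 14217 were higher (25.3%) and 1463 lower (10.3%). The median of all probe sets lay 0.34 higher in the tumors. Centring each array on its median turned this to -0.11, and 43.6% of the calls were then higher, against 68.8% without centring and 49.7% after quantile normalization. For this reason each list of genes is read against the median of all genes, which was 0.43 as deposited and -0.02 after centring.

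The tissue itself differed between the groups. Genes of the skeletal muscle list took 9.38 to 9.99% of all array signal in the controls and 0.10 to 0.17% in the MWCNT D tumors. Genes of the pancreatic list took 4.26% of the signal in MWCNT D replicate 2 and 0.0095 to 0.016% in the other MWCNT D tumors. The 3' minus 5' log2 signal of control probes is used as a sign of RNA quality. For actin it lay between 0.30 and 0.50 in the tumors and between -1.24 and -0.65 in the controls. For Gapdh the groups were close and in the other order, at 0.04 to 0.06 in the tumors and 0.10 to 0.16 in the controls. The part of RNA quality in the results was not tested. In such bulk samples fewer cells of a type and less RNA per cell cannot be told apart. Leaving out replicate 2 gave 7050 higher and 3236 lower probe sets. Of the genes called, 4494 kept their call and direction, 573 lost it, 647 were called only then, and 0 changed direction.

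Of 16 measured genes that mark mesothelium 7 were called higher in the MWCNT D tumors, 0 lower and 9 did not pass, with a median difference of 3.15. The mean of the list was lowest in replicate 2, at 7.70 beside 10.76 and 9.98, and at 5.50 to 6.81 in the controls. With the floor of 5 on the log2 signal 6 were called, and after centring 6. Msln, which encodes the surface protein mesothelin, had log2 signals of 13.29, 7.92 and 12.80 in MWCNT D replicates 1 to 3 and of 4.82, 3.50 and 6.64 in the controls. All 3 tumors lay above all controls, replicate 2 by the smallest margin, and the difference was 6.35 (SE 1.30, adjusted p = 0.0025). Wt1, a transcription factor of the mesothelial lineage, was at 12.06, 7.08 and 10.88 in the tumors and at 3.62, 3.26 and 5.54 in the controls, a difference of 5.87 (SE 1.09, adjusted p = 0.0014). The placental cadherin gene Cdh3 reached 10.31 and 10.97 in replicates 1 and 3 and 5.58 in replicate 2, against 3.54 to 4.48 in the controls, with a difference of 4.79 (SE 1.16, adjusted p = 0.0065). Slpi, an inhibitor of serine proteases, had another order, with 13.26 in replicate 2 as the highest value and 10.73 and 9.18 in replicates 1 and 3. Its controls lay between 6.31 and 7.95 (adjusted p = 0.0087). Calb2, the gene of the diagnostic marker calretinin, did not pass the test, at 7.31 to 7.71 in the tumors and 7.27 to 7.52 in the controls. Without replicate 2, 11 of the 16 genes were called.

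The epithelial keratins and junction genes rose in 13 of 22 cases (11 after centring) and fell in 0, with a median difference of 3.88. Krt18, a keratin of simple epithelia, was at 10.96, 9.66 and 13.59 in the tumors and at 0.03, 1.81 and 3.66 in the controls. The groups were far apart, and with signals below 5 raised to 5 the difference was still 6.40. Its partner Krt8 was at 11.92, 7.93 and 13.89 against 3.05 to 5.47, a difference of 7.13 (SE 1.25, adjusted p = 0.00095). Dsg2, a cadherin of desmosomes, had even levels of 10.90, 10.01 and 11.15 in the tumors and of 1.32 to 4.61 in the controls (difference 8.14, SE 1.44, adjusted p = 0.001). Ezr, which links membranes to actin, was likewise even, at 12.38, 12.22 and 13.36 against 5.05, 6.16 and 6.85, a difference of 6.63 (SE 0.48, adjusted p = 2.2e-06). Krt7 set replicate 2 apart, at 4.71 beside 11.26 and 12.51 in replicates 1 and 3. The calls of Krt7, Krt14 and Cdh1 (E-cadherin) ended when signals below 5 were raised to 5, and 7 of the 22 genes of the list then passed. The desmosomal gene Dsp was called higher by its brightest probe set (5.85, adjusted p = 0.016) and lower by its other probe set (-1.64, adjusted p = 8.1e-05), so its direction is not settled. Krt5 did not pass, with a difference of 0.35 (SE 0.41).

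Of 17 genes of a mesenchymal state 8 were called higher, 0 lower and 9 did not pass, with a median difference of 1.69. After centring 5 were higher and 1 lower. Acta2, the smooth muscle actin that myofibroblasts also make, was at 10.55, 10.43 and 10.91 in the tumors and at 7.05, 7.42 and 7.49 in the controls, with little spread in either group (difference 3.31, SE 0.26, adjusted p = 3.6e-06). Cdh11, a cadherin of mesenchymal cells, was at 12.82, 9.04 and 11.79 against 5.22 to 6.86, a difference of 5.10 (SE 1.06, adjusted p = 0.0027), and 2 of its 3 probe sets were called higher. Vim, which encodes vimentin, was already bright in the controls, at 11.47 to 12.17, and lay at 12.75 to 13.86 in the tumors (difference 1.49, SE 0.36, adjusted p = 0.0067). Of the transcription factors that drive a mesenchymal shift, Snai1 was called (1.69, adjusted p = 0.02), a call that ended with centring, with quantile normalization, and without MWCNT D replicate 1 or 3 or control replicate 1. Twist1 and Zeb1 did not pass, with differences of 0.75 (SE 0.95) and -0.56 (SE 0.31). Sox4, an SRY-box transcription factor, was at 12.29, 10.01 and 12.36 against 8.57 to 8.94, and 5 of its 7 probe sets were called higher.

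**Figure D1:**
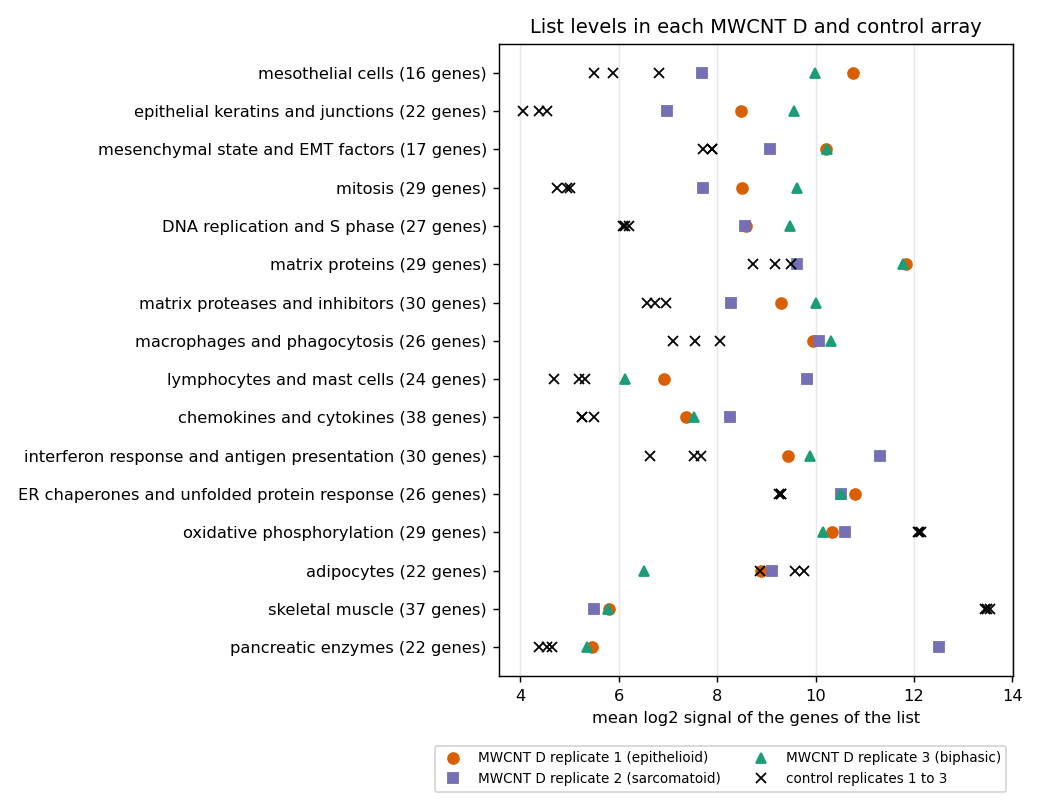
Mean log2 signal over the genes of 16 lists (x axis) in each MWCNT D tumor (circle, square and triangle for replicates 1, 2 and 3) and in each control (crosses). The skeletal muscle list lies between 5.50 and 5.81 in the tumors and between 13.45 and 13.54 in the controls, and replicate 2 stands apart in the pancreatic list (12.51) and the lymphocyte list (9.82).

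The most uniform rise was that of cell division genes. All 29 measured genes of the mitosis list were called higher, with a median difference of 3.85 (3.40 after centring), and all 29 were called without replicate 2 as well. With signals below 5 raised to 5 the count was 27. Cdk1, the kinase that starts mitosis, was at 9.97, 8.68 and 11.03 in the tumors and at 5.67, 5.97 and 5.25 in the controls, a difference of 4.26 (SE 0.49, adjusted p = 6.8e-05). Top2a, the topoisomerase that untangles chromosomes, was at 10.22, 9.28 and 11.39 against 6.15 to 6.22 (difference 4.11, SE 0.47, adjusted p = 6.1e-05). In both genes replicate 3 was the highest tumor and replicate 2 the lowest, and the same order held for the proliferation marker Mki67, at 9.92, 8.97 and 10.91 against 5.53 to 5.81. Cks2, a small subunit of cyclin-dependent kinases, showed the largest difference of the named mitosis genes after the floor, at 10.32, 9.98 and 11.18 against 5.68 to 6.04 (4.61, SE 0.32, adjusted p = 1.3e-06). The list mean was 8.50, 7.72 and 9.62 in replicates 1 to 3 and 4.75 to 5.01 in the controls.

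Upstream sequences of 3 mitosis genes are shown because promoters of such genes are known to carry the letters TTTGAA, the core of the cell cycle homology region, and CCAAT, the box bound by NF-Y. The sequences are the 150 bases before the transcription start, 5′ to 3′ on the gene's strand, from RefSeq on build GRCr8, with both motifs and their reverse complements in capitals.
Cdk1 (chr20:19265143-19265292, plus strand): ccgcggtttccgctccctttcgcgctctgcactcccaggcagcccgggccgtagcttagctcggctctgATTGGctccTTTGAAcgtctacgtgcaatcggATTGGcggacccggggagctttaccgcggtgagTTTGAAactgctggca
Cdc20 (chr5:137255800-137255949, minus strand): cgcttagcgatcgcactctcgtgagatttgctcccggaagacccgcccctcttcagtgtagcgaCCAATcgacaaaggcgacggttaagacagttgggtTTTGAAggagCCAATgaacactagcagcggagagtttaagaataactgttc
Top2a (chr10:84473094-84473243, minus strand): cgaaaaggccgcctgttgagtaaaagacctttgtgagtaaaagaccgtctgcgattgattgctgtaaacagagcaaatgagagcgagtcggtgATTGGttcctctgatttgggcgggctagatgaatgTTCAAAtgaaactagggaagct

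In the window from 250 bases before to 50 after the start, on either strand, TTTGAA was found in 22 of the 28 mitosis promoters in the RefSeq table (78.6%) and in 18.3% of all 33469 promoters there. CCAAT was found in 21 of the 28 (75%) and in 37.5% of all promoters. The letters GCGGGAA, a form of the E2F site, were in 1 of the 28 (3.57%) and in 4.21% of all. These are counts of letters, not of bound sites.

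DNA replication genes followed the mitosis genes. Of 27 measured genes 26 were called higher and 0 lower, with a median difference of 2.66, and Rfc4 was the gene that did not pass. Mcm3 and Mcm6, subunits of the replicative helicase, had the largest differences of the named genes. Mcm3 was at 8.85, 10.28 and 10.38 in the tumors and at 4.20, 3.82 and 4.94 in the controls (5.52, SE 0.40, adjusted p = 2.2e-06), and Mcm6 was at 9.69, 9.84 and 10.76 against 5.21 to 5.95 (4.52, SE 0.36, adjusted p = 4.2e-06). The sliding clamp gene Pcna was bright in both groups, at 11.61 to 12.62 against 10.12 to 10.20 (1.85, SE 0.27, adjusted p = 0.00031). Rrm1, a subunit of ribonucleotide reductase, passed narrowly (1.04, adjusted p = 0.014) and lost its call with centring, with quantile normalization, and without MWCNT D replicate 2 or 3 or control replicate 3.

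Among cell cycle regulators 15 of 24 were called higher and 0 lower (median 2.09). Ccnd1, the cyclin that takes cells out of rest, was at 11.30, 10.70 and 11.41 against 7.78, 8.11 and 7.89 (3.21, SE 0.47, adjusted p = 0.0003), and all 3 of its probe sets were called. Myc was at 10.01, 10.09 and 10.82 against 6.87 to 7.35 (3.19, SE 0.29, adjusted p = 1.2e-05), and the tumors differed little from each other. The mitotic transcription factor Foxm1 was at 6.25, 5.88 and 7.69 against 1.77 to 3.18, and its difference fell from 4.15 to 1.61 when signals below 5 were raised to 5. Cdkn2a, the tumor suppressor locus of p16 and p19Arf that is often deleted in human mesothelioma, was not lower: its log2 signals were 5.64, 7.15 and 5.78 in the tumors and 2.95 to 4.09 in the controls. Its call as higher (2.52, adjusted p = 0.0051) ended with that floor. The neighbouring inhibitor Cdkn2b did not pass (0.11, SE 0.19).

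The list of suppressors linked to mesothelioma stayed near the level of all genes. Of its 17 genes 4 were called higher and 1 lower, or 23.5 and 5.88% beside 25.3 and 10.3% of all genes. The median of 0.47 (0.02 after centring) was also close to that of all genes. Without replicate 2, 6 were called higher and 3 lower. Bap1, a deubiquitinase of chromatin, was at 10.06 to 10.11 in the tumors and at 10.84 to 10.95 in the controls, a difference of -0.80 (SE 0.15, adjusted p = 0.0013) that stayed under 2-fold as deposited and was called lower after centring. Nf2, which encodes merlin at the head of the Hippo pathway, behaved likewise, at 8.82 to 9.31 against 9.74 to 9.85 (-0.71, SE 0.25, adjusted p = 0.036), and was also called after centring. Lats2, a Hippo kinase, was at 11.69, 10.05 and 10.82 against 9.89 to 10.14, and did not pass (0.86, SE 0.39, adjusted p = 0.096) but was called higher without replicate 2. The autophagy kinase gene Ulk2 fell from 10.17 to 10.36 in the controls to 8.17 to 8.89 in the tumors (-1.65, SE 0.26, adjusted p = 0.00053). Rassf1, a suppressor that acts on Hippo kinases, rose, at 9.30 to 9.69 against 7.75 to 8.02 (1.62, SE 0.15, adjusted p = 1.6e-05).

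Of 25 Hippo pathway genes 10 rose and 5 fell (median 0.96), or 40 and 20% beside 25.3 and 10.3% of all genes. Amotl1, a scaffold that holds the co-activator Yap at junctions, was at 9.74, 9.13 and 10.05 against 12.50 to 12.81 (-3.02, SE 0.27, adjusted p = 1.1e-05). Vgll2, a partner of TEAD factors known from muscle, was at 0.59 or below in every tumor and at 10.96 to 11.25 in the controls, a difference of -6.15 with signals below 5 raised to 5. Tead4 fell by 2.26 (SE 0.33, adjusted p = 0.00033). Ajuba, a scaffold that restrains the kinases of the pathway, was at 10.93, 7.31 and 10.57 against 6.78 to 6.97 (2.76, SE 0.87, adjusted p = 0.024). Its call was lost when MWCNT D and control arrays were fitted alone, and without MWCNT D replicate 1 or 3 or any 1 control. Another gene of the list, the Yap target Ccn2, was at 13.55, 10.25 and 12.60 against 10.57 to 11.12, so replicate 2 lay below the controls and the other tumors above them (1.30, SE 0.89, adjusted p = 0.26).

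Genes of the p53 response did not move one way. Of 19 measured, 8 were called higher and 2 lower (median 0.89), or 42.1 and 10.5% beside 25.3 and 10.3% of all genes. Bbc3, which encodes the death effector Puma, was at 9.11, 9.09 and 9.19 in the tumors and at 6.43 to 6.84 in the controls (2.50, SE 0.24, adjusted p = 1.7e-05). Ddit4, an inhibitor of mTOR signaling induced by stress, was at 11.04 to 11.88 against 7.64 to 8.29 (3.49, SE 0.64, adjusted p = 0.0013). Ccng1, another p53 target, fell from 13.36 to 13.44 in the controls to 11.00 to 11.35 (-2.21, SE 0.32, adjusted p = 0.00031). The ubiquitin ligase gene Mdm2 did not pass (-0.51, SE 0.37). Cdkn1a, the gene of p21, had probe sets on both sides of 0: the brightest gave -0.61 (adjusted p = 0.28) and the other 1.84 (adjusted p = 0.023).

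The immediate early genes split. Of 19 measured, 8 were called higher and 1 lower (median 1.23), or 42.1 and 5.26% beside 25.3 and 10.3% of all genes. Junb was at 9.33, 9.02 and 10.26 against 6.07 to 6.39 (3.26, SE 0.41, adjusted p = 0.00012), and Egr1 was at 10.84 to 11.89 against 8.88 to 9.18 (2.23, SE 0.50, adjusted p = 0.0044). Fos, Fosb and Jun did not pass, with differences of 0.40 (SE 0.69), 0.05 (SE 0.28) and -0.35 (SE 0.35). Nr4a1, an orphan nuclear receptor, was the gene that fell, at 6.82, 7.97 and 6.87 against 10.10 to 10.23 (-2.96, SE 0.46, adjusted p = 0.00046). A panel of genes was also measured by RT-qPCR in the study, in more tumors than the arrays cover. The panel was picked from the array results, so its calls here are not independent evidence. Of the panel 6 genes have a probe set of their own, with 2 called higher and 3 lower. Beside Nr4a1, Plaat1 (the Hras-like suppressor) fell from 10.67 to 10.81 in the controls to 6.55, 4.83 and 6.36 in the tumors, a difference of -4.82 (SE 0.39, adjusted p = 5e-06). Fgfr4 fell from 8.07 to 8.63 to 5.79 to 6.18 (-2.31, SE 0.53, adjusted p = 0.0047). The receptor tyrosine kinase gene Ret was at 5.98 and 6.24 in replicates 1 and 3 and at 13.29 in replicate 2, above the 11.88 to 12.35 of the controls. It did not pass (-3.61, SE 1.59, adjusted p = 0.086), whereas without replicate 2 the difference was -6.00 and Ret was called lower. Rnd3, a small GTPase that loosens actin stress fibers, was at 10.93, 8.50 and 10.43 against 7.81 to 8.15 (2.02, SE 0.53, adjusted p = 0.01). Gadd45b was called higher (1.79, SE 0.60, adjusted p = 0.032), a call that ended with centring, without MWCNT D replicate 1 or 2, and without any 1 control.

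Of 29 growth factors and receptors 9 rose and 1 fell (median 1.03), or 31.0 and 3.45% beside 25.3 and 10.3% of all genes. Tgfa, a ligand of the EGF receptor, was at 7.79, 8.45 and 9.82 against 0.01 to 3.79, a difference of 3.69 with the floor of 5. Flt3, a receptor of dendritic cell and blood precursors, was at 7.72, 8.36 and 6.26 against 3.34 to 4.52 (3.71, SE 0.60, adjusted p = 0.0006). Egfr itself was at 11.08, 7.64 and 10.45, with replicate 2 below the 8.61 to 8.78 of the controls, and did not pass (1.03, SE 1.00). Of 24 TGF-beta, activin and WNT genes 7 rose and 0 fell (median 1.31). The share that rose, 29.2%, was near the 25.3% of all genes. Tgfb1 was at 7.66, 8.22 and 7.36 against 3.84 to 5.10 (3.25, SE 0.44, adjusted p = 0.0002). Grem1, a secreted antagonist of BMPs, was highest in replicate 2, at 11.16 beside 8.68 and 7.43, with controls of 3.36 to 4.82 (5.13, SE 1.37, adjusted p = 0.011). Inhba, the activin A subunit, was at 9.65, 6.21 and 10.97 against 5.84 to 6.36. By this brightest probe set it did not pass with all 3 tumors (2.80). It was called without replicate 2 (4.17), with a filter on low signals and with a replicate block. The other of the 2 probe sets of Inhba was called higher with all 3 tumors.

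Matrix genes set replicate 2 against the other tumors. Of 29 matrix proteins 8 rose and 0 fell with all 3 tumors, and 18 rose without replicate 2. With all 3 tumors the share that rose, 27.6%, was near the 25.3% of all genes. The list mean was 11.84, 9.63 and 11.78 in replicates 1 to 3 and 8.73 to 9.50 in the controls. Spp1, the gene of osteopontin, was at 12.77, 8.07 and 12.86 against 0.03, 6.55 and 6.33, a difference of 5.27 with the floor of 5. Plod2, which crosslinks collagen, was at 12.60, 9.70 and 12.83 against 7.92 to 8.39 (3.56, SE 0.66, adjusted p = 0.0014). Sdc1, the proteoglycan syndecan-1, was at 10.67, 9.02 and 11.22 against 5.33 to 6.45 (4.37, SE 0.72, adjusted p = 0.00066). Fn1, fibronectin, was at 13.67, 10.92 and 13.81 against 10.84 to 11.67, so replicate 2 lay within the control range (1.67, SE 0.78, adjusted p = 0.1). The fibrillar collagen genes Col1a1 and Col3a1 did not pass, with differences of -0.02 (SE 0.70) and 0.29 (SE 0.36).

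Enzymes that cut matrix, with their inhibitors, rose in 18 of 30 cases and fell in 0 (median 2.37). Mmp12, the elastase of macrophages, was at 8.89, 10.72 and 10.73 in the tumors and at 3.58 to 3.96 in the controls (6.31, SE 1.22, adjusted p = 0.0017). Mmp14, a protease anchored in the cell membrane, was at 13.07, 10.12 and 12.45 against 9.34 to 9.97 (2.26, SE 0.61, adjusted p = 0.011), a call that ended when these groups were fitted alone. Timp1, an inhibitor of matrix proteases, was at 11.94, 8.49 and 12.92 against 6.49 to 7.68 (4.13, SE 0.91, adjusted p = 0.0038). Mmp9, a gelatinase, had widely spaced tumors, at 4.89, 6.89 and 10.91 against 0.00 to 0.01, and its call ended with the floor of 5. Mmp2, Mmp3 and Mmp7 did not pass. Among integrins and adhesion genes 14 of 27 rose and 2 fell (median 1.80). Itga3, the alpha subunit of a laminin receptor, was at 10.29, 7.28 and 10.10 against 4.48 to 5.35 (4.35, SE 0.73, adjusted p = 0.00077). Itgb2, the beta subunit of leukocyte integrins, was highest in replicate 2, at 11.99 beside 9.90 and 9.97, with controls of 5.82 to 7.23 (4.28, SE 0.79, adjusted p = 0.0014). The kinase gene Src was even, at 9.54, 9.80 and 10.13 against 6.59 to 6.86 (3.07, SE 0.35, adjusted p = 5.9e-05). Itga7, an integrin subunit of muscle, fell (-2.40, SE 0.66, adjusted p = 0.013), a call lost without MWCNT D replicate 3.

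**Figure D2:**
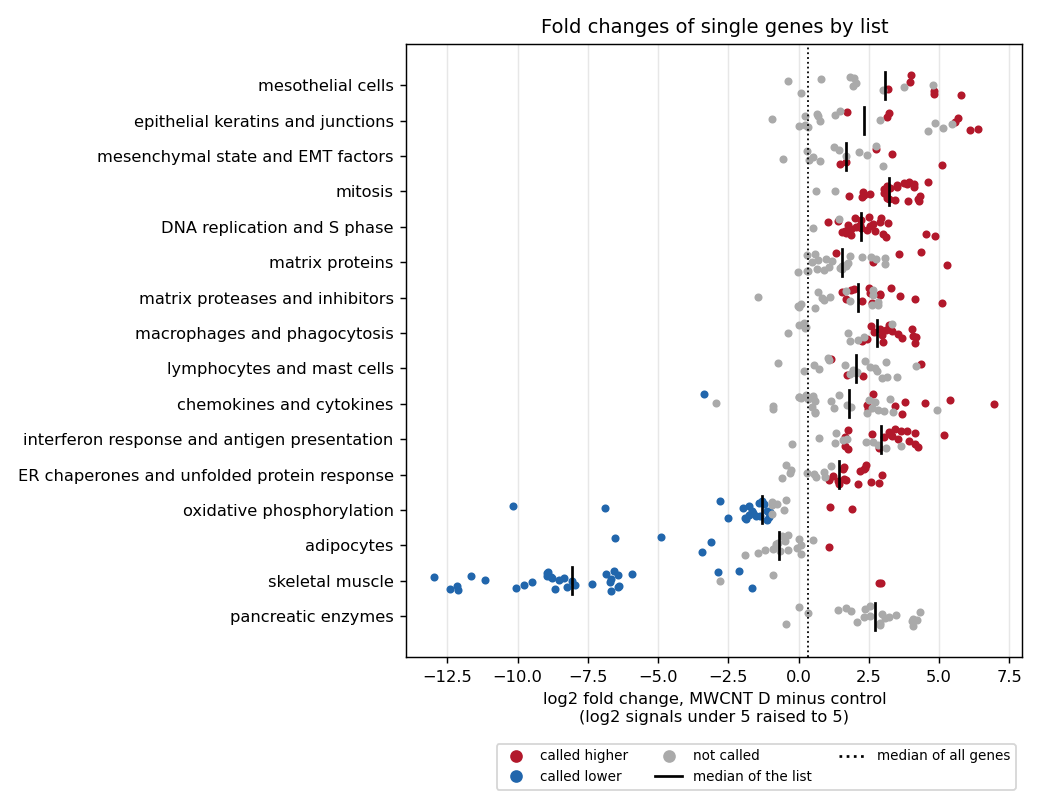
Difference of each gene between MWCNT D tumors and controls, in log2 with signals below 5 raised to 5 (x axis), by list (y axis), with the calls of that same fit in color and a black bar at each list's median. In the mitosis list 27 genes are called higher and in the skeletal muscle list 33 are called lower, while the dotted line marks the median of all genes at 0.32.

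Macrophage genes were higher in all 3 tumors at near levels. Of 26 measured genes 18 rose and 0 fell (median 2.93), and the list mean was 9.94, 10.07 and 10.31 in replicates 1 to 3 and 7.10 to 8.05 in the controls. Cd68, a lysosomal marker of macrophages, was at 10.68, 11.63 and 11.14 against 6.01 to 7.89 (4.16, SE 0.78, adjusted p = 0.0015). Gpnmb, a glycoprotein of lipid-laden macrophages, was at 13.55, 12.52 and 12.33 against 6.57 to 8.45 (5.54, SE 0.57, adjusted p = 3.1e-05). Fcgr2b, the inhibitory Fc receptor, was at 9.32, 11.00 and 11.57 against 5.46 to 7.36 (4.18, SE 0.99, adjusted p = 0.0059). Cd163 and Mrc1, scavenger receptors of resident macrophages, did not pass, with differences of 1.82 (SE 1.60) and 2.12 (SE 0.96). Cd163 ran from 7.27 in replicate 1, inside the control range of 7.02 to 7.94, to 11.13 in replicate 3.

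In the list of lymphocytes and mast cells 10 of 24 rose and 0 fell with all tumors, and 4 rose with the floor of 5. Without replicate 2, 8 were called higher and 1 lower. The list mean was 6.91, 9.82 and 6.13 in replicates 1 to 3 and 4.69 to 5.31 in the controls, so replicate 2 was the highest and every tumor lay above every control. Cd3e, part of the T cell receptor complex, was at 11.91 in replicate 2 and at 6.48 and 6.96 in replicates 1 and 3, against 5.43 to 5.53. Its call (2.98, adjusted p = 0.047) ended with centring, with quantile normalization, with the floor, and without any 1 control. It also ended when MWCNT D and control arrays were fitted alone. Cd8a was at 5.72, 7.62 and 6.83 against 3.76 to 4.80 (2.41, SE 0.54, adjusted p = 0.0043). Cd79b, part of the B cell receptor, was at 13.12 in replicate 2 and at 3.07 and 3.79 in the other tumors, no higher than the 3.66 to 3.91 of the controls. The mast cell protease gene Mcpt1 split the tumors differently, at 10.25 and 9.07 in replicates 1 and 2 and at 4.06 in replicate 3, against 3.04 to 4.67.

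Chemokine and cytokine genes rose in 17 of 38 cases and fell in 1 (median 2.61). Cxcl13, which attracts B cells, had the largest rise of all ranked genes after the floor: it was at 9.75, 13.26 and 13.43 in the tumors and at 4.86, 4.94 and 5.54 in the controls, a difference of 7.04 (SE 0.96, adjusted p = 0.0002), or 6.97 with the floor. Il18, an activator of interferon gamma that inflammasomes release, was at 9.39, 11.01 and 11.27 against 4.07 to 5.51 (5.73, SE 0.66, adjusted p = 6.8e-05). Cxcl16, a chemokine that also exists as a membrane protein, was at 11.74, 10.07 and 11.13 against 5.96 to 6.75 (4.50, SE 0.56, adjusted p = 0.0001). Ccl2, the main chemokine for monocytes, was at 10.57, 10.20 and 11.20 against 6.31 to 7.48 (3.67, SE 0.90, adjusted p = 0.0071). Il1b, a cytokine of activated macrophages, was at 7.92, 9.65 and 8.83 against 4.59 to 4.85 (4.06, SE 0.81, adjusted p = 0.0021). Il6 was listed at 0.12 or below in every control and at 6.63, 7.08 and 8.81 in the tumors, and its call ended with the floor of 5, at which the difference was 2.51. Ifng did not pass, at 3.05 to 4.39 in the tumors and 3.45 to 3.74 in the controls.

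Genes of the interferon response and antigen presentation rose in 19 of 30 cases and fell in 0 (median 3.07), and the list mean was highest in replicate 2 (11.30, beside 9.43 and 9.88, against 6.63 to 7.68). Irf8, a transcription factor of myeloid and B cells, was at 9.49, 12.72 and 9.46 against 6.09 to 6.51 (4.26, SE 0.79, adjusted p = 0.0013). Tap1, a peptide transporter for class I molecules, was at 8.24, 10.41 and 8.90 against 2.11 to 5.11, a difference of 4.15 with the floor. Cd74, the class II invariant chain, was bright throughout, at 12.59 to 13.97 against 10.28 to 11.34 (2.61, SE 0.62, adjusted p = 0.0056). The interferon targets Mx2, Ifit2 and Ifit3 did not pass. In the complement and coagulation list 8 of 18 rose and 0 fell (median 1.99). C3, the central complement protein, differed between tumors, with 13.36 in replicate 1, 10.55 in replicate 2 and 8.79 in replicate 3, all above the 3.91 to 5.81 of the controls (6.19, SE 1.22, adjusted p = 0.002). A2m, a broad protease inhibitor, was listed at 0.01 in all 3 controls and at 11.39, 9.41 and 11.78 in the tumors. With the floor of 5 the difference was 5.86 and passed narrowly (adjusted p = 0.049). The call ended with the floor and replicate 2 left out (adjusted p = 0.057).

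Of 24 endothelial and angiogenic genes 4 rose and 0 fell, a share of 16.7% higher beside 25.3% of all genes, with a median of 0.62 (0.17 after centring). Vegfd, a growth factor of lymph vessels, was at 7.93, 6.84 and 7.47 against 4.61 to 5.59 (2.20, SE 0.57, adjusted p = 0.0091). Pecam1, Kdr, Vwf and Vegfa did not pass, with differences of 0.91 (SE 0.53), 1.14 (SE 0.80), 0.35 (SE 0.39) and -0.36 (SE 0.77). Vcam1, an adhesion molecule of activated endothelium and mesothelium, was among the 15 largest rises, at 12.77, 12.46 and 12.55 against 6.36 to 7.24 (5.73, SE 0.57, adjusted p = 2.4e-05).

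Of the redox and iron genes 8 of 28 rose and 1 fell (median 1.01), or 28.6 and 3.57% beside 25.3 and 10.3% of all genes. Hmox1, which breaks down heme, was at 11.50, 11.75 and 10.96 against 7.28 to 7.94 (3.88, SE 0.66, adjusted p = 0.0008). Cyba, a subunit of the phagocyte NADPH oxidase, was at 11.40 to 11.87 against 7.25 to 8.26 (3.71, SE 0.27, adjusted p = 2.2e-06), and 1 of its 2 probe sets was called higher. The NRF2 targets Nqo1 and Gclm did not pass (-0.57, SE 1.10, and -0.05, SE 0.51). In the list of BCL2 family and cell survival genes, which holds genes that promote death as well as survival, 16 of 23 rose and 0 fell (median 1.63). Casp8, the initiator caspase of death receptors, was at 9.09, 10.64 and 9.55 against 5.02 to 5.42 (4.56, SE 0.33, adjusted p = 2e-06), and Bcl2l1, which encodes the survival protein Bcl-xL, was at 8.49 to 9.34 against 7.08 to 7.40 (1.63, SE 0.32, adjusted p = 0.0018). For Bcl2l1 2 of 3 probe sets were called higher. In the chromatin list 10 of 28 rose and 1 fell (median 0.62), or 35.7 and 3.57% beside 25.3 and 10.3% of all genes. The maintenance methyltransferase Dnmt1 rose, at 9.36, 9.59 and 10.05 against 6.43 to 7.03 (2.93, SE 0.35, adjusted p = 8.2e-05). Ezh2, the methyltransferase of Polycomb repressive complex PRC2, also rose (2.09, SE 0.31, adjusted p = 0.00036), by 2 of its 3 probe sets, while its paralog Ezh1 did not pass (-0.23, SE 0.27). ER chaperones rose in 16 of 26 cases and fell in 0 (median 1.44), among them Pdia4, at 11.95, 10.71 and 11.74 against 8.52 to 8.77 (2.86, SE 0.29, adjusted p = 3.1e-05).

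Skeletal muscle genes were among the largest falls. Of 37 measured genes 33 were called lower, with a median difference of -8.67. The lower calls were 33 without replicate 2 and 33 with the floor of 5 as well. Pgam2, the muscle form of a glycolytic mutase, was at 5.12, 4.08 and 4.76 in the tumors and at 19.33, 19.36 and 19.28 in the controls (-14.67, SE 0.28, adjusted p = 1.6e-11). Myh4, a fast myosin heavy chain, was at 3.99 to 4.88 against 17.38 to 17.41 (-13.02, SE 0.22, adjusted p = 1.1e-11). Ckm, the creatine kinase of muscle, was at 5.85, 6.12 and 5.95 against 14.01 to 14.11 (-8.07, SE 0.15, adjusted p = 1.6e-11). The lineage factor Myod1 was at 2.58 to 3.53 against 11.58 to 12.25, which gives -6.85 with the floor of 5. The 3 controls lay close together for these genes and far from every tumor. The tropomyosin genes Tpm1 and Tpm2, which many other cells also express, were the 2 members called higher, with 2 of 7 and 1 of 2 probe sets so called, and Des and Dmd did not pass.

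The upstream sequences of Ckm and Myh4 are shown with the letters CAGCTG in capitals, an E-box of the kind that MyoD and myogenin are known to bind. Each is the 150 bases before the start, 5′ to 3′, from RefSeq on build GRCr8.
Ckm (chr1:88189311-88189460, plus strand): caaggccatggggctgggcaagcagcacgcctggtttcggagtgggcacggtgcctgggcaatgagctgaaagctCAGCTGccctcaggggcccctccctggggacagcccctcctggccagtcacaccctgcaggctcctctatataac
Myh4 (chr10:52421998-52422147, plus strand): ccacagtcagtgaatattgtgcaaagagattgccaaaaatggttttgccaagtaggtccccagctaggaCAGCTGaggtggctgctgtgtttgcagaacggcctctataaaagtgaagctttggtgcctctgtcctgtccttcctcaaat

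In the window from 250 bases before to 50 after the start CAGCTG was found in 12 of 33 promoters of the skeletal muscle list (36.4%), in 1 of the 28 mitosis promoters and in 15.1% of all promoters. The core of the MEF2 site (CTA, any 4 bases, TAG) was found in 3 of the 33 (9.09%) and in 3.84% of all. TTTGAA was in 4 of the 33 (12.1%) and CCAAT in 12 (36.4%), and GCGGGAA was in 0.

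Muscle has its own form of many enzymes and structural proteins, and 18 pairs of such a form with a paralog of other tissues, listed with the results known, had both genes measured. The muscle form was called lower in 16 pairs and the other form higher in 13, and in 0 pairs was the other form called lower. Pfkm stands in 2 of the pairs, so 15 of 17 distinct muscle forms were lower. The remaining forms, Aldoa and Ldha, were not called (-0.75, adjusted p = 0.039, and -0.95, adjusted p = 0.045). In glycolysis Pgam2, Eno3 and Pfkm fell by 14.67, 5.11 and 4.72, whereas Pgam1, Eno1 and Pfkp rose by 2.34, 1.99 and 2.89. Pgam1 was at 13.14, 12.39 and 13.08 in the tumors and at 10.35 to 10.64 in the controls. The insulin-regulated glucose transporter Slc2a4 fell from 12.79 to 12.92 to 5.82 to 6.93, while Slc2a1 was at 11.09, 8.41 and 11.51 against 5.84 to 6.45 (4.11, SE 0.99, adjusted p = 0.0063). Among ribosomal proteins the muscle gene Rpl3l fell (-9.29, SE 0.38, adjusted p = 9.9e-09) and Rpl3 rose (2.31, SE 0.18, adjusted p = 3.3e-06). The alpha-actinin gene Actn1 was at 11.99, 11.51 and 11.86 against 7.73 to 8.24 (3.78, SE 0.43, adjusted p = 5.5e-05). The whole glycolysis list had 10 of 26 genes higher and 8 lower, with a median of -0.41.

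Respiratory chain genes mostly fell. Of 29 measured 21 were called lower and 2 higher (median -1.30), and 19 were lower without replicate 2. Ndufs3 of complex I was at 10.11, 9.78 and 9.77 against 12.39 to 12.40 (-2.51, SE 0.19, adjusted p = 3e-06). The 2 genes that rose, Cox6a1 (1.90, SE 0.25, adjusted p = 0.00016) and Cox8a (1.13, SE 0.16, adjusted p = 0.00031), are the forms of cytochrome oxidase subunits outside muscle, and the call of Cox8a ended with centring. Ppargc1a, the regulator of mitochondrial biogenesis, was at 4.30, 6.43 and 4.21 against 8.06 to 8.58 (-3.31, SE 0.80, adjusted p = 0.0063). The skeletal muscle list moved with all of these genes, and its part in their falls was not tested.

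**Figure D3:**
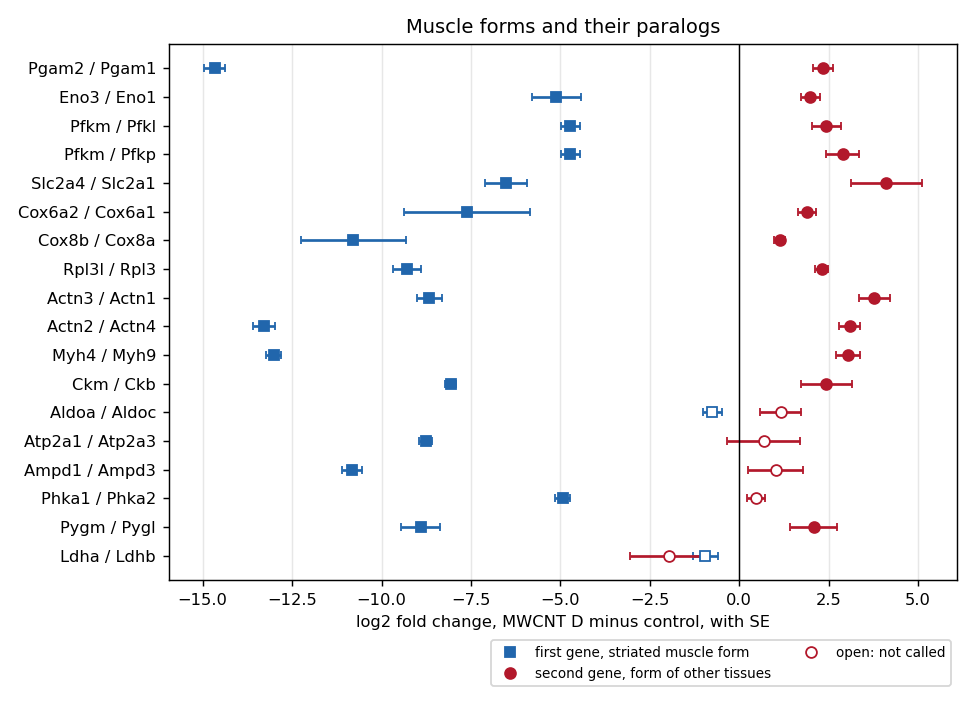
Difference between MWCNT D tumors and controls in log2, with its SE (x axis), for 18 pairs of a striated muscle form (blue squares) and a paralog of other tissues (red circles), with open symbols for genes that were not called. The muscle form is called lower in 16 pairs and the other form higher in 13.

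Few fat genes passed the test. Of 22 adipocyte genes 1 rose and 2 fell (median -0.69), and both falls, Slc2a4 and Gpd1, are genes that muscle also expresses. Adipoq, the gene of adiponectin, was at 10.43 and 10.98 in replicates 1 and 2, inside the control range of 9.89 to 11.14, and at 4.30 in replicate 3. In the smooth muscle and fibroblast list 4 of 21 rose and 2 fell, with a median of 0.22 as deposited and -0.23 after centring. Of the neutrophil and red cell genes 1 of 7 rose, and the globin gene Hbb did not pass, at 11.75 to 12.87 against 12.22 to 13.42. In the cytosolic ribosome list 5 of 12 rose and 1 fell, with 1 rise left after centring. In the liver, stomach and intestine list 2 of 16 rose and 0 fell, with a median of 0.46 as deposited and 0.01 after centring. In the pancreatic list 1 of 22 rose, and 0 did so without replicate 2. Over all genes 25.3% rose and 10.3% fell. Beside this, 4.55% of adipocyte genes rose and 9.09% fell, and 19% of smooth muscle and fibroblast genes rose and 9.52% fell. For the cytosolic ribosome the shares were 41.7 and 8.33%. The shares that rose were 14.3% for neutrophils and red cells, 12.5% for liver, stomach and intestine, and 4.55% for pancreas.

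The scaling bore on several of these counts, and on those of all genes. Among all 14217 genes 2212 were called higher and 2392 lower after centring. With the floor of 5 the numbers were 3028 higher and 1365 lower. After centring, higher calls numbered 9 for the BCL2 family and cell survival list, 6 for the Hippo pathway and 6 for chromatin. They numbered 5 each for the mesenchymal, p53 target, growth factor, lymphocyte and matrix protein lists. For endothelium, tumor suppressors and smooth muscle with fibroblasts they numbered 2 each. Lower calls then numbered 5 for tumor suppressors, 8 for the Hippo pathway, 4 for chromatin, 5 for adipocytes and 5 for smooth muscle and fibroblasts. With the floor of 5, the higher calls were 5 each for the mesenchymal, Hippo, growth factor and matrix lists, and 9 for chemokines and cytokines.

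The 3 MWCNT D tumors also differed from each other. The median spread between the highest and the lowest tumor was 0.96 for genes called higher, 0.77 for genes called lower and 0.74 for genes not called, and 254 of the 3604 higher genes (7.05%) spanned more than 3. Replicate 2 stood apart most often. A gene was counted only if its log2 signal was at least 8 in some MWCNT D tumor. Among all 14217 genes, 420 so counted were more than 2 above both other tumors in replicate 2 and 313 more than 2 below. The counts were 110 and 35 for replicate 1 and 141 and 79 for replicate 3. These are single tumors, so no test was made.

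In replicate 2, the sarcomatoid tumor, genes of the exocrine pancreas and of lymphoid tissue stood apart. The pancreatic list, whose signal in this tumor was known beforehand, had a mean of 12.51 there and of 5.45 and 5.36 in replicates 1 and 3, and its genes Reg1a and Ptf1a did not stand apart, at 6.70 and 3.71 in replicate 2. The chymotrypsinogen gene Ctrb1 was at 18.89 in replicate 2 and at 7.74 and 7.56 in replicates 1 and 3, and the islet peptide gene Iapp was at 13.77 beside 4.69 and 4.06. Ccl19, a chemokine of T cell zones, was at 17.47 beside 6.10 and 6.61. Glycam1, a ligand made by the venules of lymph nodes, was at 15.74 beside 6.16 and 5.97, and the complement receptor gene Cr2 of B cells and follicular dendritic cells was at 14.52 beside 4.80 and 5.67. In the same tumor 8 of the 16 measured mesothelial genes, 6 of 22 keratin and junction genes and 13 of 29 matrix genes reached a log2 signal of 8 elsewhere in the group and were more than 2 below both other tumors. In these lists 14, 16 and 28 genes reached that signal in some MWCNT D tumor. Over all 14217 genes the count below was 313. The keratin gene Krt19 was at 5.20 beside 11.45 and 13.22, and Bnc1, a transcription factor of mesothelium and keratinocytes, at 4.43 beside 11.17 and 10.11. Low mesothelial signal was shared by the other sarcomatoid tumors: over the 5 sarcomatoid tumors of all inducers the list mean ran from 7.70 to 9.18, with MWCNT D replicate 2 as the lowest, against 9.98 to 10.24 in 3 biphasic and 10.23 to 10.78 in 3 epithelioid tumors. The lymphocyte list mean of replicate 2 (9.82) was the highest of the sarcomatoid tumors, which started at 6.63.

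In replicate 3, the biphasic tumor, several genes of the stomach and gut lining stood apart, shown here because they were high in that tumor. In the liver, stomach and intestine list as a whole only Lgals4 and Gkn1, 2 of 16 measured genes and of 6 that reached a log2 signal of 8 in some MWCNT D tumor, were more than 2 above both other tumors there, and Alb, the gene of serum albumin, was more than 2 below, at 4.39 beside 7.12 and 9.60. Tff1, a trefoil peptide of gastric mucus, was at 15.30 in replicate 3 and at 5.52 and 5.22 in replicates 1 and 2. Lgals4, a galectin of the gut, was at 15.07 beside 5.79 and 5.47, the gastrokine gene Gkn2 at 12.93 beside 5.78 and 5.08, and Cldn18, a claudin of stomach and lung, at 11.05 beside 3.55 and 4.23. Hnf4a, a nuclear receptor of liver and gut epithelium, was at 16.58 beside 8.41 and 6.31. Pgc and Gast, genes of chief cells and of gastrin cells, were at 5.18 and 6.08 in replicate 3, near the other tumors. Fat and mast cell genes were low in the same tumor, with 8 of 22 adipocyte genes more than 2 below both others, Cidec at 0.05 beside 8.97 and 9.30, and Mcpt10 at 0.01 beside 9.58 and 7.53. In the adipocyte list 15 genes reached a log2 signal of 8 in some MWCNT D tumor. Over all 14217 genes the count below was 79.

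Replicate 1, the epithelioid tumor, had fewer genes of its own. The homeobox gene Msx2 was at 12.74 beside 6.02 and 5.63, and the vesicle protein gene Mal2 at 11.88 beside 4.41 and 4.68. The kinase gene Hunk was at 12.16 beside 5.10 and 5.67. The imprinted noncoding RNA gene H19 was at 14.68 in replicate 1, close to the 15.32 to 15.59 of the controls, and at 7.41 and 8.07 in replicates 2 and 3. It was called lower over the 3 tumors (-5.42, SE 1.43, adjusted p = 0.01). Ubd, an interferon-induced ubiquitin-like gene, was at 4.50 in replicate 1 and at 11.06 and 9.75 in the other tumors.

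**Figure D4:**
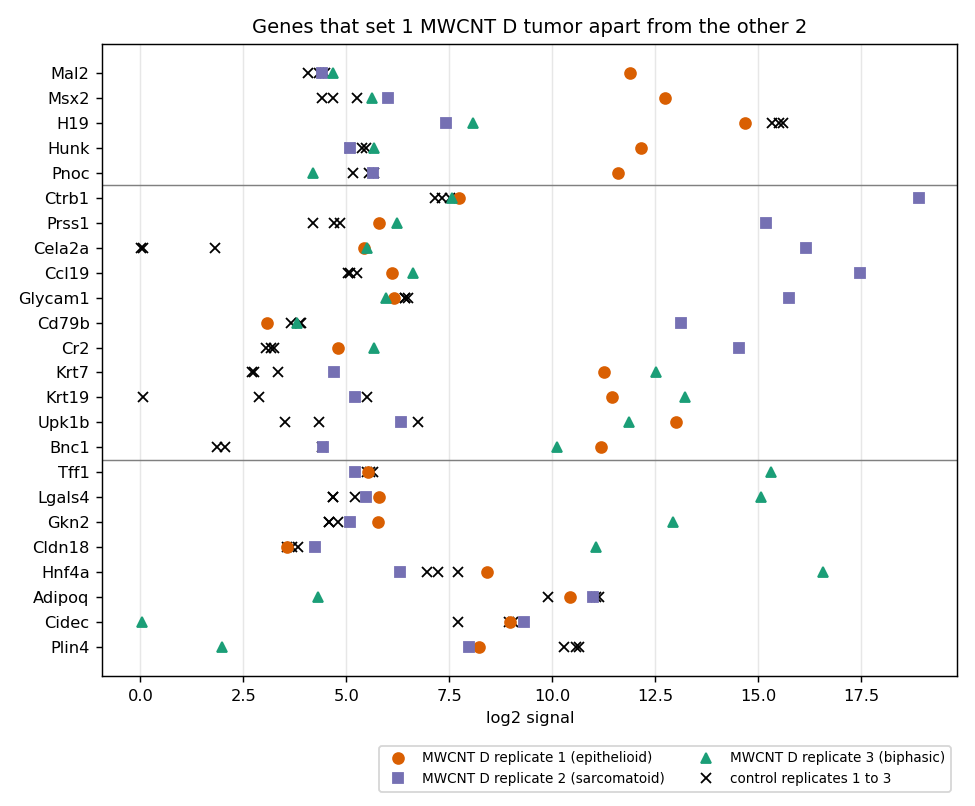
Log2 signal (x axis) of 24 genes picked from those that set 1 MWCNT D tumor apart, in replicates 1, 2 and 3 (circle, square, triangle) and in the controls (crosses), with lines between the genes of replicate 1, of replicate 2 and of replicate 3. Ctrb1 reaches 18.89 in replicate 2 and Tff1 15.30 in replicate 3, while Krt19 is at 5.20 in replicate 2 and Cidec at 0.05 in replicate 3.

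Against the tumors induced by amosite, an asbestos fiber, which have the same make-up of 1 epithelioid, 1 biphasic and 1 sarcomatoid tumor, almost nothing passed the test. By limma 1 of 31042 probe sets was called (0.00322%), with 1511 at an unadjusted p below 0.05. In simulated data this comparison recovered 99 of 200 changes of 1.5 in log2, so differences of that size can be missed. Against the mean of the MWCNT B, MWCNT C and amosite groups, 8 tumors in all, 1 probe set was called as well (0.00322%), with 2111 at an unadjusted p below 0.05. It was the same probe set, 1384191_at, for which the annotation used here gives no gene. Its log2 signal was 8.72, 9.53 and 7.63 in MWCNT D replicates 1 to 3. It was 4.03, 4.16 and 4.55 in the amosite tumors, 4.23 and 3.86 in the MWCNT B tumors, 4.48, 4.20 and 4.56 in the MWCNT C tumors, and 4.23, 3.71 and 4.22 in the controls. All 3 MWCNT D tumors thus lay above every other array, by 4.38 (SE 0.39, adjusted p = 0.0061) against amosite and by 4.39 (SE 0.32, adjusted p = 0.00088) against all 8 tumors. The call against amosite ended without MWCNT D replicate 1 and without amosite replicate 1 or 2, and 3 probe sets were called without amosite replicate 3. Against all 8 tumors 7 probe sets were called without MWCNT D replicate 1, 3 without amosite replicate 2, 4 without amosite replicate 3, 6 without MWCNT B replicate 1 and 2 without MWCNT C replicate 3. The pancreatic list took 5.44% of the signal in amosite replicate 1, and its part in these counts was not tested beyond leaving out that tumor and MWCNT D replicate 2 together, which gave 2 calls in either comparison.

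**Figure D5:**
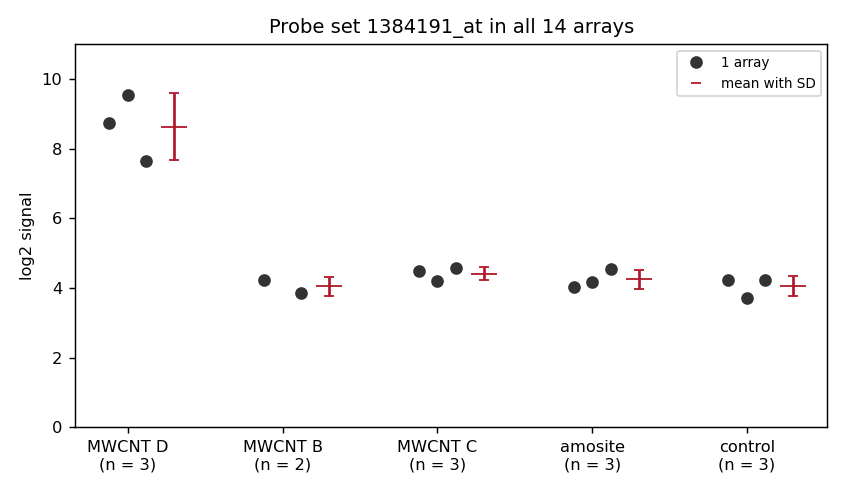
Log2 signal (y axis) of probe set 1384191_at in each of 14 arrays by group (x axis), with each group's mean and SD in red. The MWCNT D tumors lie between 7.63 and 9.53, and the other 11 arrays between 3.71 and 4.56.

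No named gene differed between MWCNT D and the other inducers after adjustment by limma, with 743 and 1077 of 14217 genes at an unadjusted p below 0.05 against amosite and against all 8 tumors. The gene nearest to the threshold was C9h6orf141, at a mean of 4.53 in MWCNT D tumors, 7.31 in amosite, 8.39 in MWCNT B and 9.10 in MWCNT C tumors (-3.74 against the 8 tumors, SE 0.46, adjusted p = 0.09). Its controls were at 0.00 to 0.01. Acan, the gene of the cartilage proteoglycan aggrecan, had a mean of 5.75 in MWCNT D tumors and 6.91 in amosite tumors, beside 12.09 and 11.79 in MWCNT B and MWCNT C tumors (-4.52, SE 0.75, adjusted p = 0.64). Penk, the enkephalin precursor, had a mean of 6.64 beside 9.53 to 9.86 in the other groups (-3.01, SE 0.57, adjusted p = 0.64). Gbx2, a homeobox gene, had a mean of 7.95 beside 4.79 in amosite tumors (3.15, SE 0.66, adjusted p = 0.94). The mitosis list had a median difference of -1.01 against the 8 other tumors, beside -0.01 over all genes. Of its 29 genes 17 had an unadjusted p below 0.05 and 0 were called. Against amosite alone the median was -0.60, with 1 gene at an unadjusted p below 0.05. The difference did not hold for all 3 MWCNT D tumors. The list means of replicates 1 and 2, 8.50 and 7.72, lay below the 9.02 to 10.67 of the other tumors. Replicate 3, at 9.62, lay inside that range. The macrophage list had medians of 0.17 and 0.18 in these comparisons, with 0 genes at an unadjusted p below 0.05.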

How the data were processed

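RNA of 11 tumors and 3 control tissues was measured on Affymetrix Rat Genome arrays, 1 array per sample. The authors used PLIER, run in the Transcriptome Analysis Console, to normalize the intensities, and the deposited table holds linear intensity with no detection calls. Removal of 57 Affymetrix control probe sets left 31042, and log2(signal + 1) was used. Of these 20826 have 1 gene symbol, 436 several and 9780 none, giving 14217 genes, each read from the probe set with the highest mean over all arrays. Limma 3.58.1 in R 4.3.3 fitted the 5 inducer groups on all 14 arrays, with the Benjamini-Hochberg adjustment taken across every probe set. The labels do not say more of the replicates than that they are biological, so p-values measure the spread between these samples, and their number limits the precision. An exact permutation test of 3 against 3 samples cannot go below p = 0.1. The limma fit takes the spread of each probe set over all 5 groups (9 residual degrees of freedom), moderated by a prior worth 2.12 degrees of freedom.

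The members and the 35 gene lists were chosen with earlier results of these data known. Of 894 listed symbols 781 have a probe set of their own. Genes are named if they anchor a list, are among the 4 largest called differences of a list, or are among the 15 largest rises or falls, ranked with log2 signals below 5 raised to 5 among non-overlapping genes with a mean of at least 8 in the higher group. For comparisons between tumors the 5 smallest p-values are named. Genes that set 1 tumor apart and the muscle paralogs were chosen after their values were seen. Alternatives covered scaling, filters, the floor, moderation, the groups fitted, a replicate block, tumor type, left-out arrays and gene-level tests, and those with the floor combined with centring or with replicate 2 left out, and those without 1 MWCNT B or MWCNT C array, were added after seeing the data. Of 348 named genes 112 have more than 1 probe set, and in 35 these differ in call. The fitting step was tested on simulated data. Replicate numbers did not pair the samples.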

Additional observations from a re-analysis of the deposited data

Results flagged for a closer look

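Probe set 1384191_at is singled out because MWCNT D tumors differed there from the tumors of the other inducers by a test of that difference. The log2 difference was 4.38 against amosite tumors and 4.39 against the mean of the other inducer groups. Its gene was not identified here.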

How the results depend on the processing

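The counts of probe sets called between MWCNT D tumors and controls were 6951 higher and 3158 lower. Higher calls numbered 4556 after quantile normalization, 4099 with each array centred, 3189 with a floor of 5 after centring (added after seeing the data), 3645 with genes in place of probe sets and 2581 at an adjusted p under 0.001. Lower calls numbered 5310 with centring, 1474 with genes in place of probe sets and 1571 at an adjusted p under 0.001. Leaving out 1 array gave 5894 to 7050 higher and 2791 to 3236 lower. The replicate numbers share no origin in the labels, and deviations of same-numbered samples did not correlate (0.00 to 0.01), and the fit with a replicate block gave 6917 higher and 3137 lower. Between tumor groups the single call against amosite became 0 with a filter on low signals (mean log2 below 6), without moderation, with the groups compared alone, with the replicate block, with genes in place of probe sets and at an adjusted p under 0.001. It became 2 with both pancreatic tumors left out and 2 with the floor and MWCNT D replicate 2 left out (added after seeing the data), and ran from 0 to 3 with 1 array left out. The single call against the other tumors became 0 with the filter and with genes in place of probe sets, 2 with both pancreatic tumors left out and 2 with the floor and replicate 2 left out, and ran from 1 to 7 with 1 of the 11 tumor arrays left out (those of MWCNT B and MWCNT C were added after seeing the data). The filter and the gene-level setting leave out probe set 1384191_at, because its mean log2 signal over all arrays lies below 6 and it has no gene. Those 2 settings therefore did not test it. The cause of the other changes was not tested. Of 227 named genes called, 169 stayed called under every setting tried for single genes. When the probe set with the smallest p was read, Cdkn1a turned to 1.84, Dkk3 to -1.59 and Dsp to -1.64. Without detection calls, signals below a log2 of 5 (17.2 to 18.5% of probe sets in the tumors and 21.8 to 24.4% in the controls) are of unknown reliability.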
